A study of Mus musculus with 2 samples.

Results

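Cytosolic ribosomal proteins are the protein components of the 80S ribosome outside mitochondria, and their genes were followed here in C2C12 cells with and without an edited Gne gene. The genes were chosen by symbol alone, as those named Rps or Rpl with a number and, where present, a p, a, x or paralog suffix, together with Rpsa. This rule found 83 of the 21829 gene symbols in the table. Of these, 30 encode proteins of the small 40S subunit, 46 encode proteins of the large 60S subunit and 7 are paralogs of such genes. The data are 2 libraries of polyadenylated RNA, 1 from the WT C2C12 line and 1 from a Gne KO line, both grown as myoblasts in DMEM with fetal bovine serum and gentamicin. C2C12 is an immortalized mouse myoblast line. The KO line carries a CRISPR–Cas9 indel in exon 2 of Gne with a premature stop codon and was isolated as a single clone. With 1 library per line, no difference described here has a replicate check, no test was possible, and the edit, the clone and the library cannot be told apart.

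Each gene has 1 value per library. The unit is not named and was read as FPKM, a level corrected for transcript length and library depth. The number of reads is unknown. The values of all genes summed to 568410 FPKM in WT and to 574144 FPKM in the library labeled KO. Gne itself had 6.67 FPKM in WT and 7.34 FPKM in the library labeled KO, so its RNA does not tell which library carries the edit, and all directions below rest on the labels. Of 7 myoblast markers, Pax7 was listed at 0 in both libraries, Myog was at 0.068 and 0.027 FPKM and Myod1 was at 59.97 FPKM in WT and listed at 0 in the library labeled KO. Myf5, of the same list, went the other way, from 9.14 to 20.3 FPKM. Together the 7 markers summed to 199 FPKM in WT and 25.8 FPKM in the library labeled KO, and their part in the results below was not tested. Of 10 markers of other cell types, 7 were listed at 0 in both libraries, among them Ptprc of leukocytes, Epcam of epithelium and Cdh5 of endothelium. The 10 markers summed to 209 and 158 FPKM, most of it from Ly6a.

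The ribosome is built from ribosomal RNA and a single copy of most of its proteins, with the 40S subunit reading the mRNA and the 60S subunit forming the peptide bond. The mRNAs of ribosomal proteins are long-lived and abundant in growing cells, and most begin with a 5′ terminal oligopyrimidine (TOP) motif, a C followed by an uninterrupted run of pyrimidines. Through this motif their translation follows mTORC1 activity, with Larp1 as the mTORC1-regulated protein that binds it. mTORC1 also acts on the S6 kinases, which phosphorylate the 40S protein Rps6. RNA sequencing of total polyadenylated RNA measures the amount of these mRNAs and not their translation.

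The start sites of these genes were examined because the TOP motif is the sequence feature the family is known for. RefSeq start sites of the GRCm38.p6 assembly were at hand for 63 of the 83 genes. The windows below hold the 10 bases before and the first 20 bases after the start, and capitals mark a C at the first transcribed base with the pyrimidine run that follows it. The first group has such a run at the annotated start and includes the S6 kinase substrate Rps6, the exit tunnel protein Rpl35, the 60S protein Rpl15 and the 40S proteins Rps10 and Rps27.
Rps6 (chr4:86857348-86857377, minus strand): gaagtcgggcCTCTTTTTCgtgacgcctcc
Rpl35 (chr2:39005112-39005141, minus strand): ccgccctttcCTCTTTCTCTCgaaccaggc
Rpl15 (chr14:18270967-18270996, minus strand): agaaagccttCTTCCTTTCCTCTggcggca
Rps10 (chr17:27635225-27635254, minus strand): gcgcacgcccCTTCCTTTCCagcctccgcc
Rps27 (chr3:90213629-90213658, minus strand): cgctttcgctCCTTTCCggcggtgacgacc
The second group has no such run exactly at the annotated start. It includes the paralogs Rps27l and Rpl22l1, shown beside Rps27 for comparison. It also includes Rpl13 and Rpl24, which lie near the opposite ends of the fold changes described below. Rps27l and Rpl22l1 do hold a run that begins within 10 bases of a start, whereas Rpl13 and Rpl24 do not. Rps27l has a further annotated start that is not shown.
Rps27l (chr9:66946076-66946105, plus strand): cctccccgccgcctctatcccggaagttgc
Rpl22l1 (chr3:28805498-28805527, plus strand): gcgcaagcccgttctcttcccacggctgca
Rpl13 (chr8:123102340-123102369, plus strand): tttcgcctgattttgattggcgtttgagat
Rpl24 (chr16:55966265-55966294, plus strand): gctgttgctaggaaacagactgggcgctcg

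A C followed by at least 4 pyrimidines stood exactly at an annotated start in 13 of the 63 ribosomal protein genes, or 20.6%, and in 2.64% of 16452 other genes. When the run was allowed to begin within 10 bases on either side, 61.9% of the ribosomal protein genes and 35.1% of the other genes held it. Some genes have several annotated starts, and a gene was counted where any of them matched. With the first listed start of each gene, at the fifth transcribed base 77.8% of the ribosomal protein genes had a pyrimidine, against 51.8% of other genes. Searched on both strands from 250 bases before to 50 after the start, CCGGAAG, the core of the ETS family site, was found in 39.7% of the ribosomal protein genes and 13.3% of other genes. AAGATGGC, the core of the YY1 site, was found in 9.52% and 3.61%, and TATAAA in 11.1% and 14.3%. Of the 63 genes, 60 had values past the filter described below. The 13 with a run exactly at the start had a median log2 fold change of 0.086, and the other 47 had 0.094. With the run within 10 bases the medians were 0.083 for the 36 genes that held it and 0.15 for the 24 that did not, so the distance between the medians depended on how the motif was placed.

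**Figure D1:**
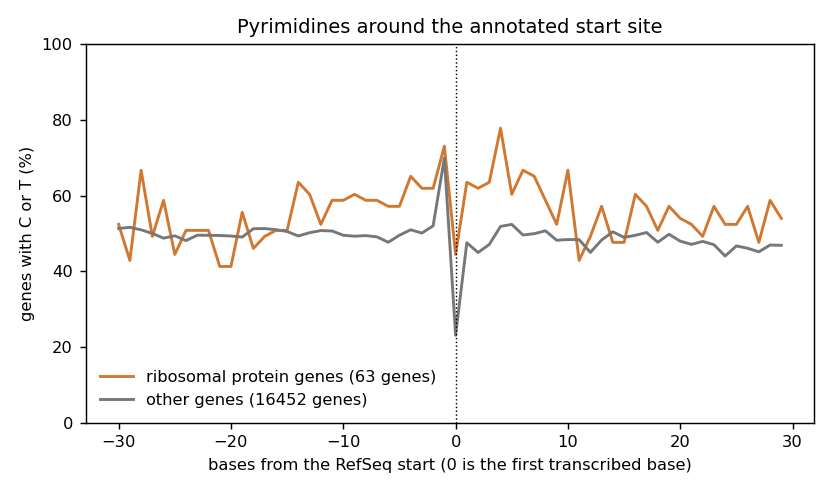
Share of genes with a pyrimidine, in percent, at each base from 30 before to 30 after the RefSeq start, for 63 ribosomal protein genes (orange) and 16452 other genes (gray), with 1 start per gene and the first transcribed base at 0. Over the first bases after the start the ribosomal protein genes lie above the other genes, with 77.8% against 51.8% at the fifth base.

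Ribosomal protein mRNAs took a large part of both libraries. The 83 genes summed to 108083 FPKM in WT and 119706 FPKM in the library labeled KO. These sums were 19.0% of all values in WT and 20.8% in the library labeled KO. All other genes together summed to 460327 and 454438 FPKM. The 40S genes held 7.72% of all values in WT and 8.64% in the library labeled KO, and the 60S genes held 11.1% and 11.9%. The summed values of the family differed by 11623 FPKM, and Rplp1 alone contributed 2909.6 FPKM of this. Without Rplp1 the shares were 18.4% and 19.7%. Among the 100 highest genes of each library, 56 in WT and 59 in the library labeled KO belonged to the family.

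Levels within the family spanned a wide range. Of the 83 genes, 80 had a mean of at least 1 FPKM. The other 3 are paralogs with a restricted expression elsewhere. Rpl3l, the paralog of Rpl3 found in heart and skeletal muscle, was listed at 0 in WT and at 0.048 FPKM in the library labeled KO. Rpl10l and Rpl39l, both known from the testis, were listed at 0 in both libraries. Among the 80 genes the level per length ran from 72.8 to 4293 FPKM in WT, with a median of 1155 FPKM. In the library labeled KO it ran from 57.2 to 6553 FPKM, with a median of 1187 FPKM. The lowest was Rpl7l1 in both libraries. The 3 highest by mean were Rplp1, Rpl41 and Rps15. Rpl41, a very small protein at the contact of the subunits, had 4293 FPKM in WT and 5657 FPKM in the library labeled KO. Rps15, a protein of the 40S head whose tail reaches toward the decoding center, had 3236 and 4239 FPKM. The order of the genes was largely shared by the libraries, with 57 of the 80 within 5 ranks of their place in the other library and a largest shift of 16 ranks.

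**Figure D2:**
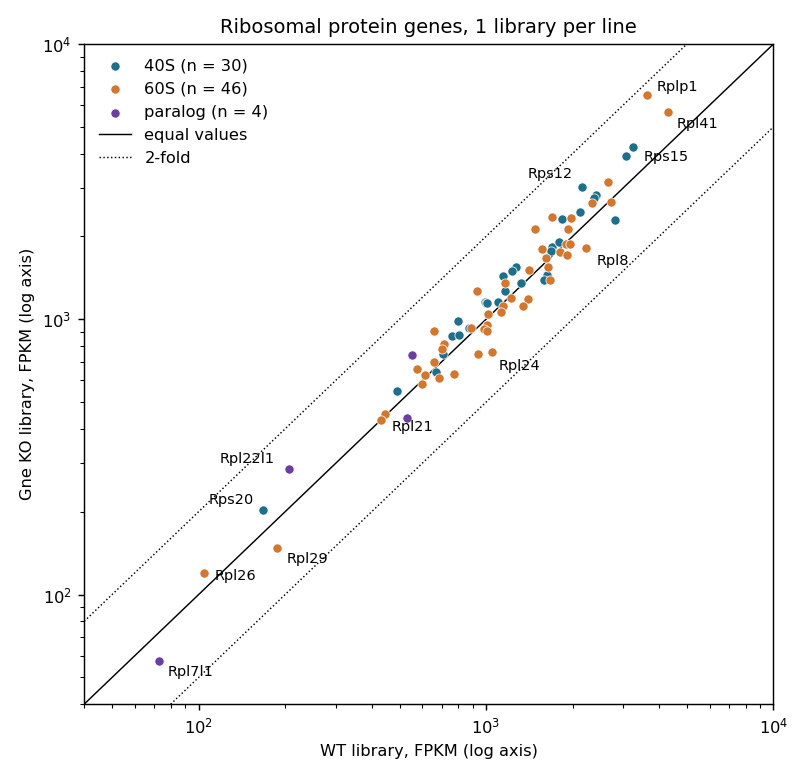
FPKM of the 80 ribosomal protein genes past the filter in the WT library (x axis) and the library labeled KO (y axis), both on log axes, with 1 point per gene colored by subunit, a solid line at equal values and dotted lines at 2-fold. All 80 points lie between the dotted lines, and Rplp1, at 3644 and 6553 FPKM, lies nearest to one of them.

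Some of these levels are uncertain because of near-identical copies. Ribosomal protein genes have many processed pseudogenes, and a read that matches several copies can be divided among them. Of the 80 genes, 20 had at least 10 other genes in GENCODE vM39 with a transcript that matched at least 80% of their coding sequence at 95% identity. Rpl21 had 58 such copies, Rpl7a had 33 and Rpl29 had 30. The 20 genes had a median log2 fold change of 0.049, with 12 higher in the library labeled KO, and the 60 with fewer copies had a median of 0.11, with 40 higher. The canonical member with the lowest level, Rpl26, had 6 copies. The 2 next lowest, Rpl29 and Rps20, had 30 and 2. Whether copies affect the levels was not tested.

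No ribosomal protein gene differed by more than 2-fold between the lines. The fold change was log2((KO + 1)/(WT + 1)), which makes the difference of a low gene look smaller than it is, and a difference beyond 2-fold was counted as a call. Calls were made for 0 of the 80 genes, whereas 6.27% of all 10542 genes past the filter were called, with 2.84% higher and 3.43% lower. Among the 1392 genes with a mean at least that of Rpl7l1, 65.0 FPKM, 4.6% were called, with 1.51% higher and 3.09% lower. Smaller differences leaned to one side. In the library labeled KO 52 of the 80 genes had a higher value and 28 a lower one. This is 65.0% higher, against 50.7% of all genes and 52.9% of the genes at least as high. The lower members are to be read against 49.3% and 47.1%. The median log2 fold change of the 80 genes was 0.087, with an interquartile range from -0.072 to 0.23 and extremes of -0.46 and 0.85. For all genes the median was 0.0061, with an interquartile range from -0.21 to 0.23. Among the other 1312 genes at least as high it was 0.014. The interquartile range of the family was 0.30 wide, against 0.44 for all genes and 0.36 for the other genes at least as high. It lay further toward higher values at its lower end, which was -0.16 for the other genes at least as high.

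The counts were uneven between the subunits. Of the 30 genes of 40S proteins, 26 had a higher value in the library labeled KO and 4 a lower one, with a median log2 fold change of 0.19. Of the 46 genes of 60S proteins, 24 were higher and 22 lower, with a median of 0.011, which turned slightly negative when the libraries were scaled to each other. The median level of the 40S genes was 1254 FPKM in WT and 1409 FPKM in the library labeled KO. That of the 60S genes was 1156 and 1149.9 FPKM. The ratio of the summed 40S values to the summed 60S values was 0.70 in WT and 0.72 in the library labeled KO, with the sum of the 60S genes raised by Rplp1 and Rpl41. The difference between the subunits was not tested, because members of a family measured in the same pair of libraries are not replicates.

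**Figure D3:**
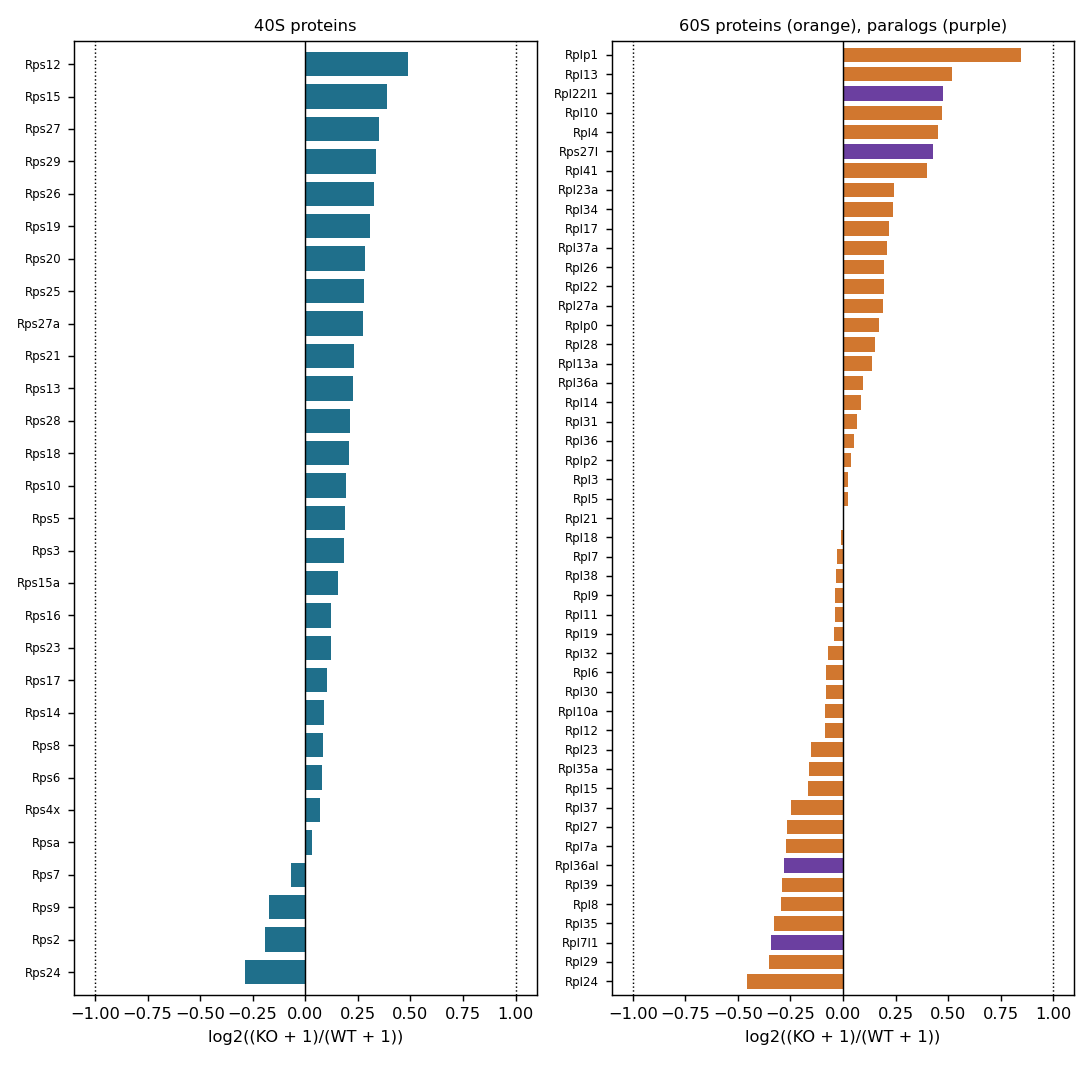
Log2((KO + 1)/(WT + 1)) of each ribosomal protein gene past the filter, ordered by value, for genes of 40S proteins (left, blue) and of 60S proteins with 4 paralogs (right, orange and purple), with dotted lines at 2-fold and the few genes not reported left out. On the left all but 4 bars point to the right, and on the right the bars run from 0.85 for Rplp1 to -0.46 for Rpl24.

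The proteins of the stalk did not share 1 value. The stalk is the flexible arm of the 60S subunit that recruits the translation factors with GTPase activity, and it consists of Rplp0 as the anchor and pairs of Rplp1 and Rplp2. Rplp1 had the highest fold change of the family, with 3644 FPKM in WT and 6553 FPKM in the library labeled KO, a log2 fold change of 0.85. It stood 9 in the order of all genes of the WT library and 3 in the library labeled KO. Its partner Rplp2 had 1017 and 1043 FPKM, a log2 fold change of 0.036. Rplp0 had 2345 and 2638 FPKM, a log2 fold change of 0.17. Rpl12 at the base of the stalk had 1125 and 1059 FPKM, a log2 fold change of -0.087. Thus the 2 partner proteins of the stalk had fold changes at different places in the family, with that of Rplp2 near the middle.

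Among the highest fold changes after Rplp1 were those of Rpl13, Rps12, Rpl22l1 and Rpl10. Rpl13, a 60S protein, had 1484 FPKM in WT and 2129 FPKM in the library labeled KO, a log2 fold change of 0.52. The genes around it on chromosome 8 had a median of 0.33, as described below, and subtraction left 0.19. Rps12, in the beak of the 40S subunit, had 2156 and 3022 FPKM, a log2 fold change of 0.49. Rps12 had 24 near-identical copies and Rpl10 had 10, so their levels are less certain than that of Rpl13, which had 7. Rpl10, an X-linked protein near the peptidyl transferase center that joins the 60S subunit late, had 1695 and 2349 FPKM, a log2 fold change of 0.47. None of these reached 1.5-fold. The gap from Rplp1 to the next gene, 0.85 against 0.52, was wider than any other step among the 6 highest.

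The lowest fold changes were those of Rpl24, Rpl29, Rpl7l1, Rpl35, Rpl8 and Rpl39. Rpl24, which forms a bridge to the 40S subunit and joins the 60S subunit in the cytoplasm, had 1045 FPKM in WT and 759.8 FPKM in the library labeled KO, a log2 fold change of -0.46. Rpl29, a 60S protein, had 188 and 147 FPKM, a log2 fold change of -0.35, and has many copies as given above. Rpl35, at the rim of the peptide exit tunnel, had 939.8 and 748 FPKM, a log2 fold change of -0.33. Rpl8, a protein near the peptidyl transferase center, had 2223 and 1811 FPKM, a log2 fold change of -0.30 that turned to 0.10 once the median of its neighbors was subtracted. Rpl39, which lines the exit tunnel, had 776 and 634 FPKM, a log2 fold change of -0.29. All 6 encode 60S proteins or, for Rpl7l1, a paralog of one, and the lowest 40S gene was Rps24 at 2801 and 2294 FPKM, a log2 fold change of -0.29.

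By position in the ribosome, the fold changes were mixed. Of 9 genes for the exit tunnel and its rim, 6 were higher and 3 lower, with a median log2 fold change of 0.19. This is 66.7% higher, beside 65.0% of the 80 members and 52.2% of the 60S genes. The 9 genes ran from Rpl4, a protein with a loop inside the tunnel, at 928 and 1270.3 FPKM, to Rpl35 as given above. Of 7 genes for the mRNA channel of the 40S subunit, 6 were higher and 1 lower, with a median of 0.18. This is 85.7% higher, close to the 86.7% of all 30 genes of 40S proteins, whose median was 0.19. Rps26, at the mRNA exit, had 1142 and 1432 FPKM, a log2 fold change of 0.33, and Rps2, at the mRNA entry, had 1585 and 1386 FPKM, a log2 fold change of -0.19. Rpl5 and Rpl11, which with 5S ribosomal RNA form the particle that binds Mdm2, had log2 fold changes of 0.022 and -0.040. Rpl5 had 446 and 453 FPKM, and Rpl11 had 601 and 584 FPKM. Both lay close to the value of all genes.

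Of 14 genes mutated in Diamond-Blackfan anemia, an inherited failure of red cell production, 9 were higher and 5 lower, with a median log2 fold change of 0.15. This is 64.3% higher, close to the 65.0% of the 80 members. The extremes were Rps27, a 40S protein with a zinc finger, at 3067 and 3908 FPKM, a log2 fold change of 0.35, and Rps24. Rps19, the gene most often mutated in that disease, had 796 and 986 FPKM, a log2 fold change of 0.31. Rps29, a small 40S protein, had 1833 and 2314 FPKM, a log2 fold change of 0.34. Rps6, the S6 kinase substrate, had 706 and 747 FPKM, a log2 fold change of 0.081. The 3 members listed here as reference genes in quantitative PCR had higher values in the library labeled KO, as did 65.0% of the 80 members. The list does not hold every member used in that way. Rps18 had a log2 fold change of 0.21, Rplp0 of 0.17 and Rpl13a of 0.14.

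Some paralogs can take the place of a canonical protein in the ribosome, and 4 of the 7 passed the filter. Rpl22l1, the paralog of the RNA-binding protein Rpl22, had 206 FPKM in WT and 286 FPKM in the library labeled KO, a log2 fold change of 0.47. Rpl22 had 575 and 658 FPKM, a log2 fold change of 0.19. Rpl22l1 therefore held 26.4% of the summed value of the pair in WT and 30.3% in the library labeled KO. The genes around Rpl22l1 had a median of 0.29, and subtraction of the neighbors left 0.18 for Rpl22l1 and 0.29 for Rpl22, the opposite order. Rps27l, a p53 target gene, had 552 and 742 FPKM, a log2 fold change of 0.43, beside 0.35 for Rps27, and its share of the pair was 15.2% and 15.96%. Subtraction of the neighbors left 0.13 for Rps27l and 0.32 for Rps27, again the opposite order. Rpl36al, the autosomal partner of X-linked Rpl36a, had 531 and 436 FPKM, a log2 fold change of -0.28. Rpl36a had 1409 and 1504 FPKM, a log2 fold change of 0.094, and the share of Rpl36al went from 27.4% to 22.5%. Rpl7l1 had 72.8 and 57.2 FPKM, a log2 fold change of -0.34, beside Rpl7 at 1217 and 1191 FPKM, a log2 fold change of -0.031. Its share of the pair was 5.64% and 4.58%. The expressed paralogs thus lay on both sides of 0.

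The symbol rule leaves out proteins of the ribosome with other names, of which 3 are given here. Rps3a1 had 294 FPKM in WT and 339 FPKM in the library labeled KO, a log2 fold change of 0.21. Fau, a ubiquitin-like protein fused to a 40S protein, had 1025 and 1075 FPKM, a log2 fold change of 0.068. Rack1, the scaffold on the 40S head, had 1045 and 1008 FPKM, a log2 fold change of -0.052. All 3 lie inside the range of the family.

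The fold changes of the members went in part with those of the genes around them. For each member, the median log2 fold change of the other genes that start at most 5 Mb away was taken, with ribosomal protein genes left out and positions from GENCODE vM39 on GRCm39. Across the 80 members, Pearson's r between the member and its neighbors was 0.56 and Spearman's rho was 0.44. These are descriptions across genes of the same 2 libraries, and some members share neighbors. Of the 80 members, 43 lay nearer to the median of their neighbors than to 0. This is near an even split, and the same count was not made for other genes. Subtraction of the neighbors brought the width of the interquartile range from 0.30 to 0.28 and the standard deviation from 0.25 to 0.20. Pearson's r was 0.54 for the other genes at least as high as the lowest member. All 4 members on chromosome 10, Rps12, Rps15, Rpl41 and Rps26, were higher in the library labeled KO, with log2 fold changes from 0.33 to 0.49. For Rps12 the neighbors had a median of 0.47 and for Rps15 of 0.38, so that they were left with 0.015 and 0.0055 after subtraction. Rpl41 and Rps26 had neighbors at 0.15 and were left with 0.25 and 0.18. Rpl4 and Rps25 on chromosome 9, at 0.45 and 0.28, had neighbors at 0.33 and 0.44, which left Rps25 with -0.16. Rpl24 on chromosome 16 had neighbors at -0.34, and Rpl8 on chromosome 15 had neighbors at -0.40. Of the 8 members whose neighbors lay beyond 0.3 in either direction, 7 had the sign of their neighbors, as did 93.0% of the 187 other genes at least as high in such surroundings.

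Other members differed from their surroundings. Rpl3, a 60S protein that reaches the peptidyl transferase center, lies near Rpl8 among genes at -0.40 but had 615 and 625 FPKM, a log2 fold change of 0.024. Rplp1 on chromosome 9 had neighbors at 0.29, which left 0.55 after subtraction. Rpl10, which has 10 near-identical copies, was also left with 0.55, Rps29 with 0.49 and Rps19 with 0.40. Rps24, with neighbors at 0.11, was left with -0.39. On chromosome 12, Rps29 and Rpl36al lie 22.3 kb apart and share their neighbors at -0.15, yet had log2 fold changes of 0.34 and -0.28. With the neighbors subtracted, 50 of the 80 members were above 0, or 62.5%, with a median of 0.099. After the same step 49.95% of all genes and 53.5% of the genes at least as high were above 0, the latter with a median of 0.022. The medians were then 0.12 for the 40S genes, of which 23 of 30 were above 0, and 0.090 for the 60S genes, of which 25 of 46 were. The subunits were therefore closer to each other in the median than before subtraction. With the members on chromosomes 8, 9, 10, 15 and 16 left out, a choice made after the data were seen, 21 of 25 genes of 40S proteins and 17 of 33 of 60S proteins were higher.

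**Figure D4:**
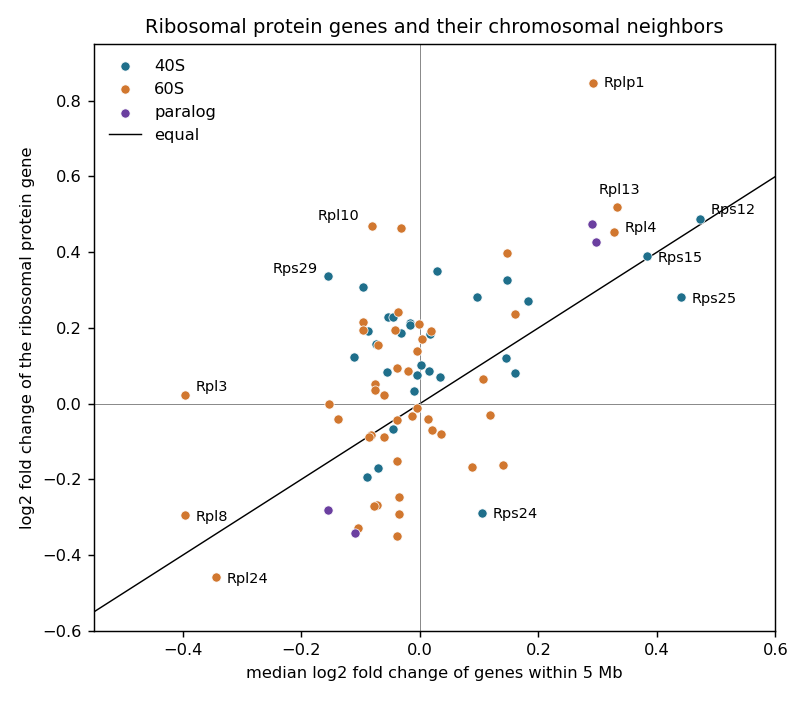
Log2 fold change of each of the 80 ribosomal protein genes (y axis) against the median log2 fold change of the other genes within 5 Mb (x axis), colored by subunit, with a line at equal values. Rps12, Rps15 and Rpl24 lie near the line, whereas Rplp1, Rpl10 and Rps29 lie well above it and Rps24 below it.

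Lists of genes for the making of ribosomes had medians below 0. Of 85 factors of ribosome assembly, 24 had a higher value in the library labeled KO and 61 a lower one. This is 28.2% higher, against 50.7% of all genes past the filter. Beyond 2-fold were 0 of the 85, against 6.27% of all genes. Their median log2 fold change was -0.11. The lowest were Nop10, a component of the H/ACA particles that modify ribosomal RNA, at 97.8 and 53.7 FPKM, a log2 fold change of -0.85, and Heatr3, which carries Rpl5 into the nucleus, at 69.4 and 39.5 FPKM, a log2 fold change of -0.80. Heatr3 had neighbors at -1.45. The highest were Bccip, at 23.1 and 36.9 FPKM, and Rrp1, at 62.4 and 85.1 FPKM, with neighbors at 0.54 and 0.39. Of 16 genes for RNA polymerase I and the transcription of ribosomal DNA, 4 were higher and 12 lower, with a median of -0.15. The lowest were Myc, a transcription factor that drives ribosome production, at 58.6 and 35.2 FPKM, a log2 fold change of -0.72, and Polr1b, at 15.3 and 11.5 FPKM. The highest were Twistnb at 9.28 and 11.1 FPKM and Polr1c at 46.03 and 49.98 FPKM, both subunits of the polymerase. After subtraction of the neighbors the medians of these lists were -0.16 and -0.12, beside 0.099 for the ribosomal proteins. The -0.12 is over the 13 polymerase genes with a known position, which leaves out Twistnb among others. Removal of GC and length trends brought the median of the assembly factors to -0.058, and a pseudocount of 5 brought that of the polymerase list to -0.091.

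Translation factors and other large complexes gave medians near or below 0. Those of the initiation factors, the other TOP mRNAs and the mitochondrial ribosomal proteins turned slightly positive after subtraction of the neighbors. Of 35 initiation factor genes 17 were higher and 18 lower, with a median log2 fold change of -0.018. They ran from Eif3d, at 181 and 131 FPKM with neighbors at -0.39, to Eif2s3x, at 103 and 140.5 FPKM. Of 8 genes listed with the elongation factors only Eef2, which moves the ribosome along the mRNA, was higher, at 1154 and 1523 FPKM. Its log2 fold change was 0.40 beside neighbors at 0.39. The 8 include Eef2k, the kinase of Eef2, at -0.34 and Eef1e1 at -0.020, which are not elongation factors themselves. The lowest was Eif5a, at 1366 and 1071 FPKM, a log2 fold change of -0.35. Of 21 TOP mRNAs listed that encode no rule member, 9 were higher and 12 lower, with a median of -0.052, among them Nap1l1 at 345 and 442 FPKM and Hnrnpa1 at 887 and 730.3 FPKM. Their neighbors lay at 0.41 and -0.40. Of 78 mitochondrial ribosomal protein genes, the matching parts of the other ribosome of the cell, 35 were higher and 43 lower, with a median of -0.014. They ran from Mrps5, with a log2 fold change of -0.65, to Mrpl54, at 87.2 and 148 FPKM with a log2 fold change of 0.75. Of 36 genes with the symbols of proteasome subunits 12 were higher and 24 lower, with a median of -0.071, from Psmc3 at -0.47 to Psmb10 at 0.58. The symbols also take in Psmc3ip, which is no subunit, at 0.090, and the assembly factors Psmd5, Psmd9 and Psmd10. Subtraction of the neighbors left a median of -0.019 for the 36 genes. The counts of these lists are to be read against 50.7% higher and 49.3% lower among all genes past the filter. None of the genes in these lists was beyond 2-fold, against 6.27% of all genes.

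In a list of S6 kinases and genes for the control of TOP mRNAs, 15 passed the filter, and 9 were higher and 6 lower. Their median log2 fold change was 0.077, which dropped to 0.0044 after removal of GC and length trends. Not all of them couple mTORC1 to these mRNAs. The list also holds the family member Rps6, Akt1, which acts upstream of mTORC1, and Rps6ka2 and Rps6ka3 of the separate RSK family. The last 3 had log2 fold changes of 0.15, 0.15 and 0.38. Larp1 had 56.5 FPKM in WT and 57.8 FPKM in the library labeled KO, a log2 fold change of 0.034. The S6 kinase gene Rps6kb1 had 14.3 and 15.6 FPKM, and Rps6kb2 had 9.59 and 7.56 FPKM, log2 fold changes of 0.12 and -0.31. Eif4ebp2, an inhibitor of the cap-binding protein Eif4e, had the highest fold change, at 36.5 and 60.8 FPKM, a log2 fold change of 0.72. Pdcd4, an inhibitor of translation initiation degraded after phosphorylation by S6 kinases, had the lowest, at 4.09 and 2.71 FPKM, a log2 fold change of -0.46. None was beyond 2-fold.

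**Figure D5:**
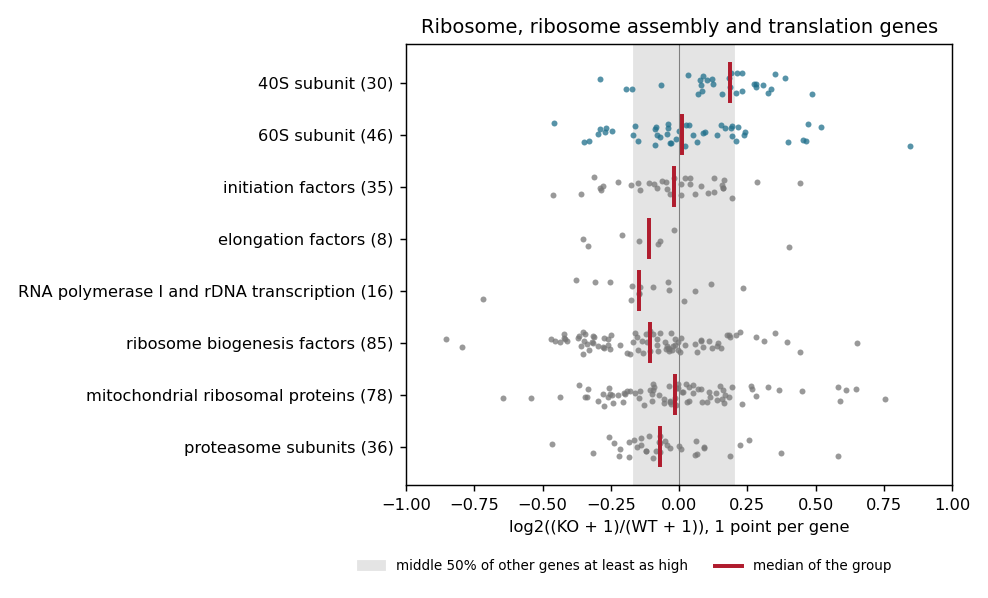
Log2((KO + 1)/(WT + 1)) of the genes past the filter in 8 groups, with 1 point per gene, a red line at the median of each group and a gray band over the middle 50% of other genes at least as high as the lowest ribosomal protein gene. Several groups lie below the 65.0 FPKM of that gene. Median WT levels were 14.2 FPKM for the polymerase list, 28.9 for biogenesis factors and 35.3 for mitochondrial ribosomal proteins. For all genes past the filter the middle 50% was wider, from -0.21 to 0.23. The medians run from 0.19 for the 40S subunit to -0.15 for RNA polymerase I and rDNA transcription, and the median of the 60S subunit, 0.011, turns slightly negative when the libraries are scaled to each other.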

How the data were processed

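Per the labels, polyadenylated RNA from 1 WT and 1 KO culture was sequenced. The labels and the study's methods name different library kits and sequencers. Reads were trimmed with TrimGalore, aligned with STAR to GRCm39 and quantified by RSEM according to the methods, whereas the submitters' notes list Trim Galore 0.6.6, STAR 2.7.9a, RSEM 1.3.3 and GRCm38. The deposited values name no unit and were taken as FPKM, because they are not whole and their totals differ between the libraries. They could also be TPM of part of the genes, which would shift all log2 fold changes by 1 constant. Reads per library are unknown, so no counting interval is given.

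For the 24 of 21853 rows with a repeated symbol, only the row of highest mean was used. Fold changes used a pseudocount of 1 and the 10542 genes whose mean reached 1 FPKM. No p-value was computed. Positions came from GENCODE vM39, for 10170 of these genes and all members, and lengths and GC content from its canonical transcripts. Copies were counted with blastn 2.17.0, and start sites came from RefSeq on GRCm38.p6. Named genes were the 6 highest and 6 lowest fold changes, the 3 highest levels, the paralogs, the members outside the rule, the stalk, the 5S particle, reference genes, members with neighbors beyond 0.3, and genes from among the 2 highest and 2 lowest of each other list. Any further gene was picked with its value in view. A few of these genes are not reported here by name, but counts and medians include them. The members, lists and alternatives were chosen with earlier results of these data known. The fold change and neighbor steps were tested on simulated data. Alternatives were other scalings, pseudocounts of 0.1 and 5, other filters, subtraction of neighboring genes, removal of GC and length trends by lowess, and summed repeats. Python 3.11.15, numpy 2.4.6, pandas 2.3.3 and statsmodels 0.14.6 were used.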

Additional observations from a re-analysis of the deposited data

How the results depend on the processing

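With 1 library per line no replicate could be left out, and the table holds 0 mitochondrially encoded genes, so leaving those out changed nothing. No paired analysis was possible because only 1 library of each line was analyzed and no test was run. The count of members beyond 2-fold was 0 under each alternative run. The members higher in the library labeled KO were between 50 and 54 of 80, or 53 of 83 without a filter, and their median log2 fold change was between 0.072 and 0.099. The median of the 60S genes became -0.0016 with scaling by the median of ratios and -0.0036 with scaling to the same sum. It was 0.024 without members with 10 or more copies, and that of the 40S genes was then 0.19, a setting added with the data in view, as were the removal of chromosomes and of Rplp1. Without chromosomes 8, 9, 10, 15 and 16, 39 of 61 members were higher. After subtraction of neighboring genes the median of the initiation factors was 0.043, of other TOP mRNAs 0.016 and of mitochondrial ribosomal proteins 0.0020. The last was 0.0063 after removal of GC and length trends. Genes beyond 2-fold were 2.64% of all genes with a pseudocount of 5 and 3.32% without a filter, where 33.6% were higher because many genes are at 0 in both libraries. The share of the summed values held by members, 1.83 percentage points higher in the library labeled KO, was 1.04 points higher without the 10 highest genes, 4 of which are members. Among the ribosomal proteins named, Rpl8, Rpl11, Rps6 and Rps25 had another sign after subtraction of neighbors, and Rpl11 and Rack1 after removal of GC and length trends. Of genes named from the other lists, Heatr3, Hnrnpa1 and Nap1l1 also changed sign with neighbors subtracted. The median of the elongation factor list was -0.047 with neighbors subtracted and -0.065 without GC and length trends. Removal of these trends also brought the initiation factors to -0.0037 and the other TOP mRNAs to -0.0064. Scaling to the same sum brought the initiation factors to -0.031 and the mitochondrial ribosomal proteins to -0.027. Unknown depth and the absence of replicates leave every single-gene value without an error.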
